A study of Mus musculus with 19 samples.

Results

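Of the 4122 autosomal hotspots that the authors attributed to the B6 allele of PRDM9 in the hybrid B6/SPRT, 907 gave fewer than 25% of their reads from the B6 chromosome both by DMC1 and by H3K4me3. These hotspots were chosen by measured values, namely these B6 fractions of DMC1 and H3K4me3 reads, and are called SPRT-biased hotspots here. They are 22.0% of the autosomal B6-allele hotspots and 35.7% of the 2541 that have both fractions, among 18522 autosomal hotspots and 19247 hotspots in all in this hybrid. The 5 hotspot tables of the series hold 74327 hotspots.

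B6/SPRT is the male offspring of a C57BL/6J (B6) mother and a SPRET/EiJ (Mus spretus, SPRT) father with the unmodified Prdm9 allele of each parent. In Hum/SPRT and CAST/SPRT the same cross carries, in place of the B6 allele, a humanized allele (the human B allele) or a Mus musculus castaneus allele. STUS/B6 and STUS/Hum are hybrids of B6 and STUS/Jpia (STUS, Mus musculus musculus). Both carry the Prdm9 allele of STUS, together with the B6 allele in STUS/B6 and the humanized allele in STUS/Hum. All animals were adult males, each with 1 set of chromosomes from B6 and the other from SPRT or STUS, and whole testis was used. There was 1 DMC1 library per genotype, and H3K4me3 ChIP and input each had 2 samples in B6/SPRT, 2 in CAST/SPRT and 3 in Hum/SPRT, 19 samples in all. The number of mice behind a library is not given in the sources used here.

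PRDM9 is a histone methyltransferase that binds DNA through an array of zinc fingers and trimethylates histone H3 at lysine 4 (H3K4me3) around its binding site. In spermatocytes a subset of these sites receives a programmed double-strand break (DSB), and the recombinase DMC1 coats the resected single-stranded ends. H3K4me3 therefore reports where PRDM9 was bound and DMC1 single-stranded DNA sequencing (SSDS) where DSBs formed, and in a hybrid the single nucleotide polymorphisms (SNPs) in a read show which homolog it came from. The DMC1 signal rises with the number of breaks and with the time they persist, and in whole testis also with the share of cells at that stage, and these cannot be told apart here.

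The reference genome is the B6 genome, so reference sequence at an SPRT-biased hotspot shows the homolog that gave few reads. RefSeq promoter sequences, which run from 250 bases before to 50 bases after a transcript start, lay wholly within the 1000 bp window of 2 of the 907 hotspots, and both are printed 5′ to 3′ on the strand of the gene. That of Gm34628, a long noncoding RNA (GRCm38.p6, chr4:56478347-56478646, minus strand), holds a hotspot center at base 173 of 300, and the 21 bases around the center are in capitals. That of Il2, the gene of the T cell growth factor interleukin 2 (chr3:37125905-37126204, minus strand), ends before its hotspot's center, which lies 133 bp from the transcript start within the gene, so it has no capitals.
Gm34628: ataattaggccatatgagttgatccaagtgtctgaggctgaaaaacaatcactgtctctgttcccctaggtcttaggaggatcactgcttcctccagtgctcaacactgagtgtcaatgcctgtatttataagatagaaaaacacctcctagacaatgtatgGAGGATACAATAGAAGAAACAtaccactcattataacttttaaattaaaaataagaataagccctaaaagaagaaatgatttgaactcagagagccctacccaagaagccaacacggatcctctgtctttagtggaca
Il2: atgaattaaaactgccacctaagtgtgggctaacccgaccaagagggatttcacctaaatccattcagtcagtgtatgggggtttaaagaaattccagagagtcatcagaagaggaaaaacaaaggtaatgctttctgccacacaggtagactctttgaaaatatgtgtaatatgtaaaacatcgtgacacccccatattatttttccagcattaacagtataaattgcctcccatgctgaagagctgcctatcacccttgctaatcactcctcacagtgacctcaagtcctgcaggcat
Their GC content was 39% for Gm34628 and 42% for Il2, against a median of 52.7% over 32851 RefSeq promoters. The hotspot at Gm34628 had a DMC1 signal of 483, with 12.7% of DMC1 reads and 18.3% of 471 SNP-carrying H3K4me3 reads from B6. The hotspot at Il2 had a DMC1 signal of 126, with 10.1% of DMC1 reads and 18.8% of 128 H3K4me3 reads from B6. Both therefore carried their B6 sequence on the less used homolog, and no expression of either gene was measured.

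The fractions that chose the hotspots are given as a description. By DMC1 the median B6 contribution of the 907 hotspots was 2.17% (95% interval of the median 1.96 to 2.38%), with a highest value of 24.1%. It was 0 at 51 hotspots and under 5% at 717. By H3K4me3 the median was 14.7% (interval 14.1 to 15.4%), the range was 2.03 to 24.9%, and 31 hotspots lay under 5%. The H3K4me3 fraction was above the DMC1 fraction at 891 of 907 hotspots. The same held at 2089 of all 2541 B6-allele hotspots with both fractions (82.2%), among them 523 of 649 matched hotspots. It was thus not particular to the SPRT-biased ones. It held at 657 of 657 cut on SPRT with at least 25% of H3K4me3 from B6, where the class limits require it. Hotspots cut on B6 went the other way, with the H3K4me3 fraction above the DMC1 fraction at only 18 of 328 (5.49%). Their median B6 fractions were 95.9% by DMC1 and 83.5% by H3K4me3. Across the 907 hotspots the 2 fractions had a Spearman rho of 0.45, over hotspots of 1 genotype that share libraries and the limits of the selection.

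**Figure D1:**
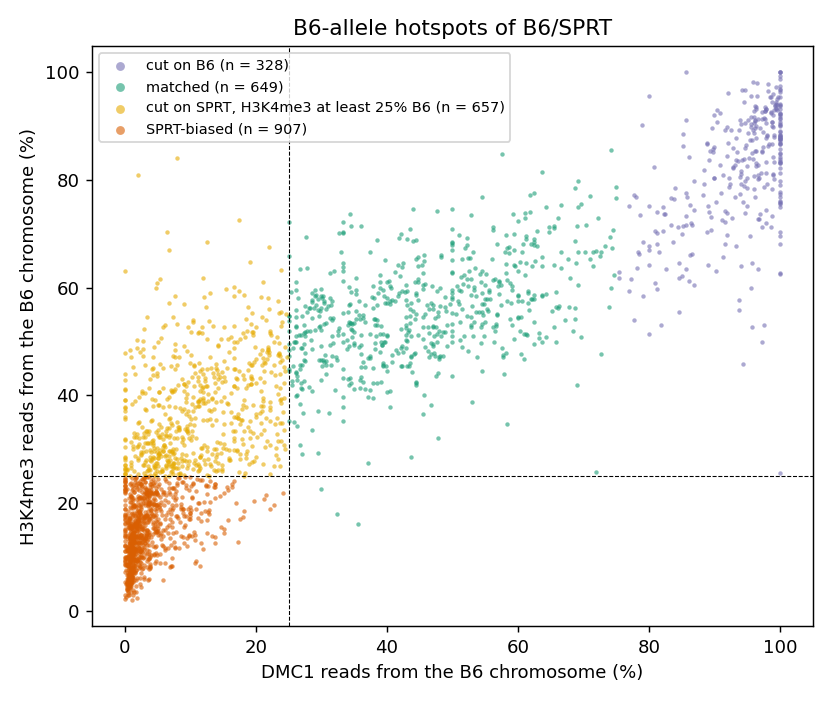
Percent of reads from the B6 chromosome by DMC1 (x axis) and by H3K4me3 (y axis) at the 2541 autosomal B6-allele hotspots of B6/SPRT with both fractions, 1 point per hotspot, with dashed lines at 25%. The 907 SPRT-biased hotspots fill the lower left corner and lie mostly above the diagonal, with medians of 2.17% by DMC1 and 14.7% by H3K4me3.

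Each H3K4me3 fraction rested on 14 to 1159 SNP-carrying reads (median 234), and 898 hotspots had at least 50. For 641 of 907 hotspots (70.7%) the 95% Wilson interval of the H3K4me3 fraction lay wholly under 25%. The SNP-carrying reads summed to 243645 over the 907 hotspots, more than the 140933 units of ChIP coverage there. How they were counted is not stated. If they are not independent reads, these intervals are too narrow. The number of reads behind each DMC1 fraction is unknown. On the X chromosome, where a male hybrid of this cross carries only the B6 copy, 99.8% of H3K4me3 reads (mean of 707 hotspots) and 99.8% of DMC1 reads (698 hotspots) were assigned to B6. These values cover B6 reads only. They cannot show how often SPRT reads were assigned to B6 or lost in mapping. Intervals here cover counting error only, since H3K4me3 was read from 1 pooled column per genotype and there was 1 DMC1 library, so no spread between mice was available and no test was made.

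Just inside the DMC1 limit were hotspots on chromosome 8 at 75753567 in Iqcm (24.1%) and on chromosome 12 at 81190550 (22.7%). Among hotspots with under 25% of H3K4me3 from B6, the first outside it were on chromosome 6 at 76886216 in Ctnna2 (30%) and at 147217825 (32.4%). The nearest on the H3K4me3 side were on chromosome 13 at 37722435 (24.9%) and chromosome 10 at 94495684 in Tmcc3 (24.8%) inside, and, among hotspots cut on SPRT, on chromosome 3 at 23047603 and 96504847, both at 25%, outside.

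The SPRT-biased hotspots were among the hotter B6-allele hotspots. Their median DMC1 signal was 100.2 (95% interval 93.2 to 108, range 7.61 to 729), and 704 of 907 (77.6%) lay above 43.4, the median of all 4122. The other B6-allele hotspots were put in 4 classes by the same fractions. The 657 that were cut on SPRT (under 25% B6 by DMC1) with at least 25% of H3K4me3 from B6 had a median of 31.8 (28.9 to 36.8). The 649 matched hotspots (25 to 75% B6 by DMC1) had 23.9 (22.1 to 26.1), and the 328 cut on B6 (over 75%) had 20.4 (18.8 to 22.6). The SPRT-biased median was 3.15, 4.19 and 4.90 times these medians, although single hotspots overlapped across all classes. The 1581 hotspots without a DMC1 fraction had a median of 49.5 (45.1 to 54.3). The SPRT-biased hotspots carried 59.7% of the DMC1 signal of B6-allele hotspots with a fraction, 34.9% of that of all B6-allele hotspots and 6.37% of all autosomal signal.

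H3K4me3 separated the classes much less. ChIP over input coverage in the 1000 bp window had a median of 7.50 at SPRT-biased hotspots (7.17 to 7.75, range 1.25 to 28.6). It was 5.78 at hotspots cut on SPRT with H3K4me3 on both homologs (5.32 to 6.16), 6.58 at matched hotspots (6.16 to 7.08) and 5.34 at those cut on B6 (5 to 5.88). The excess over matched hotspots was thus 1.14 times for H3K4me3 and 4.19 times for DMC1. Of the summed H3K4me3 ratio of all B6-allele hotspots the SPRT-biased ones held 23.3%, close to their 22.0% of hotspots. The ratios rest on 140933 units of ChIP and 17252 of input coverage over the 907 hotspots, with 6 to 49 (median 19) units of input at each, so a ratio at 1 hotspot is coarse.

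**Figure D2:**
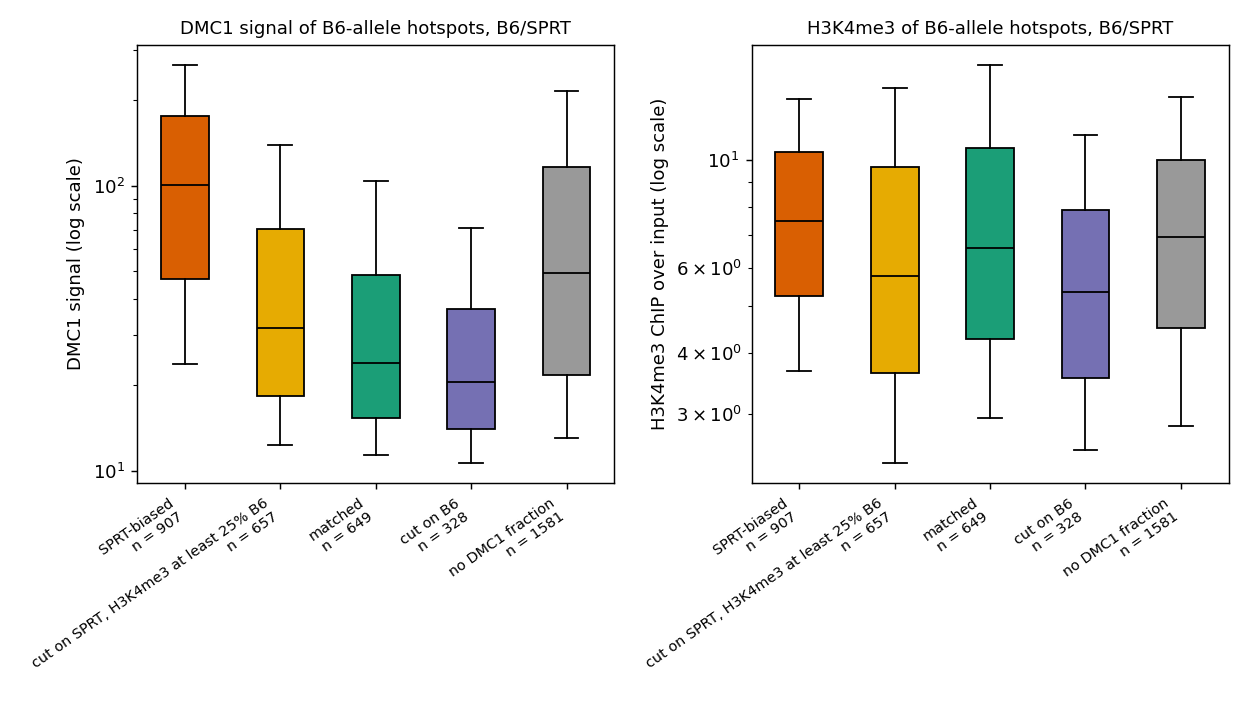
DMC1 signal (left) and H3K4me3 ChIP over input coverage (right) of autosomal B6-allele hotspots of B6/SPRT by class, on log axes. Boxes span the quartiles with the median as a line, and whiskers run from the 10th to the 90th percentile of hotspots. The SPRT-biased box is highest for DMC1 (median 100.2), while the H3K4me3 medians all lie between 5.34 and 7.50.

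Splitting each level by its B6 fraction put most of both marks on 1 homolog. H3K4me3 assigned to the SPRT homolog had a median of 6.33 at SPRT-biased hotspots and 2.91 at matched ones, which is 2.17 times as much. H3K4me3 assigned to B6 was 1.002 against 3.69. DMC1 signal assigned to SPRT was 97.7 against 13.0, or 7.50 times as much, and that assigned to B6 was 1.77 against 10.6. These splits follow in direction from the selection, and their sizes are given as a description. Per unit of H3K4me3 ratio, the median DMC1 signal was 12.9 (12.1 to 13.6) at SPRT-biased hotspots, 6.53 at hotspots cut on SPRT with H3K4me3 on both homologs, 4.24 at matched and 4.25 at those cut on B6.

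The difference in DMC1 signal was also present within bins of H3K4me3. All B6-allele hotspots were put in 4 bins of the H3K4me3 ratio. The bins are wide and the ratio covers both homologs, so H3K4me3 on the cut homolog was not made alike between classes. In the lowest bin (0.43 to 4.37) the median signal was 40.7 at 151 SPRT-biased hotspots and 14.5 at 169 matched ones. In the next bins it was 62.6 against 19.6, and 115 against 30.5. In the highest (10.04 to 47.7) it was 170.0 at 255 SPRT-biased and 63.5 at 179 matched hotspots. The SPRT-biased median was thus 2.68 to 3.78 times the matched one, and 1.99 to 2.27 times that of hotspots cut on SPRT with H3K4me3 on both homologs, with intervals that did not overlap in any bin.

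**Figure D3:**
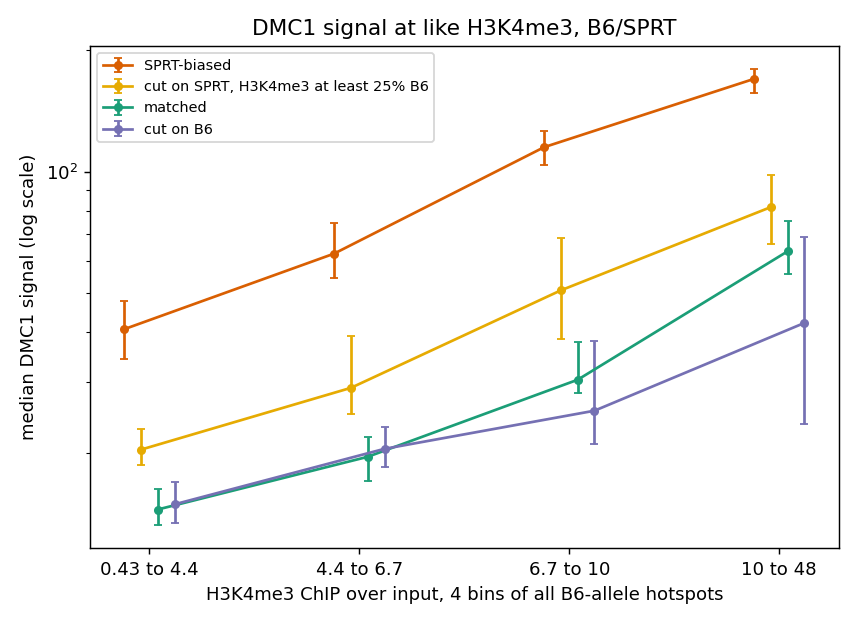
Median DMC1 signal (log axis) of 4 classes of B6-allele hotspots within 4 bins of H3K4me3 ChIP over input, with 95% order-statistic intervals over hotspots. The SPRT-biased line is highest in every bin, from 40.7 in the lowest to 170.0 in the highest.

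Among the SPRT-biased hotspots DMC1 signal and H3K4me3 rose together, with a Spearman rho of 0.54 over 907 hotspots of the same libraries. The same relation had a rho of 0.53 at hotspots cut on SPRT with H3K4me3 on both homologs, 0.67 at matched and 0.42 at those cut on B6. The hotter the hotspot, the lower was its B6 fraction. In 5 bins of DMC1 signal from lowest to highest, the median H3K4me3 B6 fraction was 18.9, 16.3, 14.8, 13.0 and 10.02%. The DMC1 fraction went from 4.55% in the lowest bin to 1.08% in the highest, and the H3K4me3 ratio from 4.94 to 10.1. The rho of signal with the H3K4me3 fraction was -0.43, and with the DMC1 fraction -0.36. The number of reads behind each DMC1 fraction is unknown, and the part of read depth or of the H3K4me3 level in these trends was not tested.

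The strongest SPRT-biased hotspot lay on chromosome 3 at 65655101 (mm10), 4.19 kb from the microRNA gene Mir8120. It had a DMC1 signal of 729, with 0.183% of DMC1 and 7.66% of H3K4me3 reads from B6, and an H3K4me3 ratio of 13.4. It was also the strongest of all 4122 B6-allele hotspots. The next were on chromosome 13 at 3599921 in Tasor2 (signal 634), chromosome 2 at 3737080 in Fam107b (595), chromosome 10 at 9063924 (576) and chromosome 15 at 7652534 (575). All 5 had at most 2.30% of DMC1 reads from B6, and their H3K4me3 ratios ran from 5.36 to 13.4, so the strongest DMC1 signal did not go with the highest H3K4me3.

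The highest H3K4me3 ratio, 28.6, was on chromosome 15 at 98788102, 1.76 kb from Wnt1, which encodes a secreted signaling ligand. There DMC1 signal was 231 and 6.29% of 890 SNP-carrying H3K4me3 reads came from B6. The next ratio, 27.4, was on chromosome 8 at 84180030, 1.07 kb from Mir181c, with a DMC1 signal of only 18.7 and B6 fractions of 17.0% by DMC1 and 20.1% by H3K4me3. The hotspot on chromosome 2 at 181691354 lay inside Rgs19, a regulator of G protein signaling, 0.463 kb from its start, with a ratio of 24.6 and a signal of 114. Promoters can carry H3K4me3 of their own, on both homologs, and its part in these ratios was not tested. The weakest of the 907 was on chromosome 2 at 29431388 in Med27, a subunit of Mediator, with a signal of 7.61 and a ratio of 7.79, above the median ratio.

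For contrast, the strongest hotspot cut on SPRT with H3K4me3 on both homologs, on chromosome 12 at 3513436 near Asxl2, had a signal of 594 with 18.7% of DMC1 and 56.5% of H3K4me3 reads from B6. The strongest matched hotspot, on chromosome 3 at 129105766 in Gm35726, had 457 with 33.1% and 66.6%, and the strongest cut on B6, on chromosome 9 at 123351619 near Lars2, had 360 with 92.1% and 96.2%. The strongest without a DMC1 fraction, on chromosome 13 at 116403483, had 706 and 5.26% of H3K4me3 reads from B6. Of the 1571 hotspots that lacked only the DMC1 fraction, 393 had under 25% of H3K4me3 from B6. Their median signal, 107 (95.7 to 123), was near that of the SPRT-biased hotspots, against 36.4 for the other 1178.

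The same B6 chromosome and B6 allele were measured against another homolog in STUS/B6, a library that the selection did not use. Of the 907 hotspots, 747 were called there with centers within 500 bp, which is 82.4% (95% Wilson interval 79.7 to 84.7%) against 83.8% of all B6-allele hotspots of B6/SPRT. This was near the share over all of them, but that share differed between classes, with 92.0% (89.6 to 93.8%) of matched hotspots found. It was 80.7% (77.5 to 83.5%) at hotspots cut on SPRT with H3K4me3 on both homologs. At those cut on B6 it was 85.1%, and at those without a DMC1 fraction 82.4%. A share lower than that of matched hotspots was thus not particular to the SPRT-biased ones. In 5 bins of B6/SPRT signal, from lowest to highest, 78.0, 77.9, 87.3, 81.8 and 86.8% of SPRT-biased hotspots were found. Of the other B6-allele hotspots with a DMC1 fraction and the same range of signal, 82.8, 91.2, 94.1, 94.4 and 92.5% were found. This share was higher in each bin, but it pools matched hotspots with the other classes. The authors attributed 722 of the 747 (96.7%) to the B6 allele there and left 25 without an allele. This was near the 96.4% (3330 of 3455) of all B6-allele hotspots found there. The median distance between centers was 52 bp, and the largest was 385 bp. The 160 that were not found had a median DMC1 signal of 77.2 (64.9 to 107) in B6/SPRT, against 103 (95.2 to 110) for those found, with overlapping intervals.

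Where they were found, nearly all were cut on the STUS homolog. The hotspots had been chosen for few reads from the same B6 chromosome under the same allele. A low B6 fraction at any call there was thus likely beforehand, and the part of this choice in the shares below was not tested. Of 737 with a fraction in STUS/B6, 710 gave under 25% of DMC1 reads from B6 there, which is 96.3% (94.7 to 97.5%) against 62.2% over all B6-allele hotspots found. The median was 1.06% and 623 were under 5%. Another 21 lay between 25 and 75% (2.85%, against 30.2% over all) and 6 above 75% (0.814%, against 7.56%). The share under 25% was 70.04% (360 of 514) at hotspots cut on SPRT with H3K4me3 on both homologs, 12.3% (68 of 551) at matched hotspots and 5.41% (14 of 259) at those cut on B6. At hotspots without a DMC1 fraction it was 98.4% (313 of 318) where H3K4me3 was under 25% B6 and 64.1% (592 of 924) where it was not. The intervals of the SPRT-biased class and of the 3 other classes with a fraction did not overlap, but each library is 1 sample, so this describes hotspots of these libraries, not mice.

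**Figure D4:**
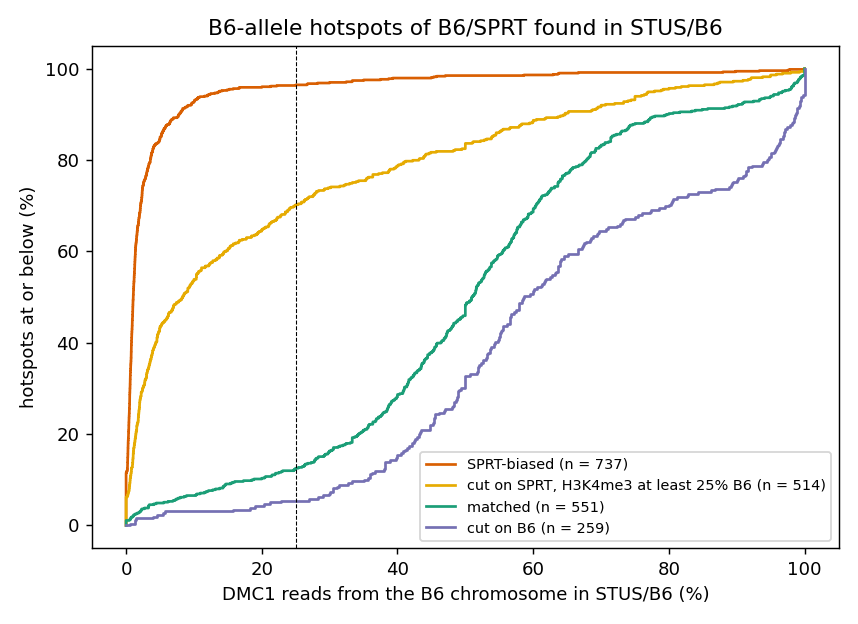
Cumulative percent of hotspots (y axis) by the percent of DMC1 reads from the B6 chromosome in STUS/B6 (x axis), for 4 classes set in B6/SPRT, with a dashed line at 25%. At that line the SPRT-biased curve has reached 96.3% of 737 hotspots and the matched curve 12.3% of 551.

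Because SPRT-biased hotspots were hotter, the same share was read within 5 bins of their B6/SPRT signal. It was 99.3, 94.96, 94.2, 95.1 and 98.1% from the lowest bin to the highest. In the other B6-allele hotspots with a DMC1 fraction and the same range of signal it was 30.3, 36.3, 35.8, 36.6 and 61.7%. In the subset of these cut on SPRT with H3K4me3 on both homologs it was 72.4, 67.5, 68.9, 54.3 and 86.2%. The SPRT-biased share was thus above the others in each of the 5 bins, the last of which held only 47 other hotspots, 29 of them cut on SPRT.

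In STUS/B6 these positions were also hot. Their median DMC1 signal there was 216 (197 to 233, range 8.01 to 949) against 56.7 (53.9 to 59.5) for all 6115 autosomal B6-allele hotspots of that library, and 640 of 747 lay above the latter. Hotspots called in both hybrids were hotter in general, with a median there of 117 (111 to 123) over the 3455 B6-allele hotspots of B6/SPRT that were found. By class it was 85.3 (77.5 to 97.8) at hotspots cut on SPRT with H3K4me3 on both homologs, 77.2 (68.2 to 86.8) at matched, 103 (83.3 to 118) at those cut on B6 and 121 (109.98 to 135) at those without a DMC1 fraction. The scales of the libraries were not put on 1 basis, so levels are compared only within a library. The signals of the 2 hybrids had a Spearman rho of 0.65 across 747 hotspots (Pearson r of log2 signals 0.58), which share the B6 allele and the B6 chromosome. The rho was 0.55 at hotspots cut on SPRT with H3K4me3 on both homologs, 0.67 at matched and 0.62 at those cut on B6. DMC1 B6 fractions within the SPRT-biased class had a rho of only 0.24 between hybrids (737 hotspots).

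Single positions differed more than this. The strongest in STUS/B6, on chromosome 19 at 20796579 in Tmc1, a component of the mechanotransduction channel of hair cells, had a signal of 949 there and 54.8 in B6/SPRT. It gave 0.554% of DMC1 reads from B6 in STUS/B6 and 0% in B6/SPRT. The hotspot on chromosome 5 at 139598149 had 937 there and 318 in B6/SPRT, and the one on chromosome 3 at 65655101 had 896 and 729. The hotspot near Mir181c, with 18.7 in B6/SPRT, had a call of 256 in STUS/B6 with its center 278 bp away and no allele assigned, and whether both are the same hotspot was not tested. CAST/SPRT, which lacks the B6 allele, had a CAST-allele hotspot with a signal of 24.0 at 102 bp from the same B6/SPRT center.

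The 27 positions with 25% or more of DMC1 reads from B6 in STUS/B6 were not weak in B6/SPRT. Their median signal was 109 (73.6 to 153) there, against 102 (94.4 to 110) for the other 710. In STUS/B6 their median signal was 36.5 (19.1 to 66.4) against 228 (210.1 to 244), so these positions stood lower in that hybrid. Centers lay a median of 84 bp apart (57 to 202) against 48 bp (41 to 58). Where 2 centers are that far apart, whether both libraries called the same binding site was not tested.

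In genotypes without the B6 allele almost none of these positions was a hotspot. The authors attributed alleles by comparing mice with different Prdm9 alleles. Low shares here may therefore follow in part from how B6-allele hotspots were labeled, and this part was not tested. Of the 907, 3 were called within 500 bp in Hum/SPRT (0.331% against 0.509% of all B6-allele hotspots), 4 in CAST/SPRT (0.441% against 0.437%) and 5 in STUS/Hum (0.551% against 0.728%). The shares were near the background in all 3 libraries, and 10 of the 907 positions were called in at least 1 of them. All 3 calls in Hum/SPRT were attributed to the humanized allele and all 4 in CAST/SPRT to the CAST allele. In STUS/Hum 1 was attributed to the humanized allele, 2 to the STUS allele and 2 to none. The position on chromosome 2 at 60875040 was called for the humanized allele in both hybrids that carry it, with a signal of 177 in Hum/SPRT and 37.7 in STUS/Hum, beside 19.7 in B6/SPRT.

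The SPRT-biased hotspots were spread over all 19 autosomes. Their number ran from 33 on chromosome 18 to 68 on chromosome 11, with a median of 45. Their share of B6-allele hotspots with both fractions ran from 30.6% on chromosome 3 (23.7 to 38.5%) to 47.4% on chromosome 19 (36 of 76, 36.5 to 58.4%), with a median of 33.3%. These are the ends of 19 values, and the difference between them was not tested. The share of DMC1 signal ran from 49.7% on chromosome 9 to 71.9% on chromosome 5. On each of the 19 autosomes both the median DMC1 signal and the median H3K4me3 ratio were higher at SPRT-biased than at the other B6-allele hotspots with a fraction. The share under 25% B6 in STUS/B6 was between 90.3 and 100% on every autosome.

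**Figure D5:**
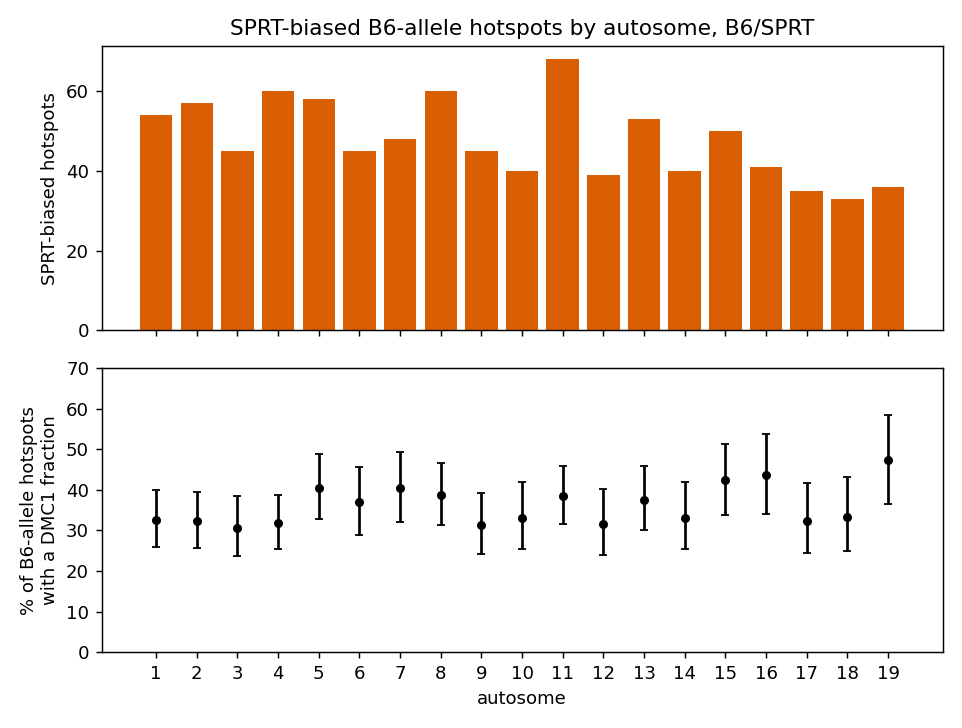
Number of SPRT-biased hotspots on each autosome (top, bars) and their percent of the autosomal B6-allele hotspots with both fractions (bottom, points with 95% Wilson intervals). Chromosome 11 holds the most (68) and chromosome 19 has the highest share (47.4%), with wide and overlapping intervals.

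Position along the chromosome and gene content differed little from those of all B6-allele hotspots. With each autosome cut into 3 equal parts from its first to its last hotspot, 301, 294 and 312 SPRT-biased hotspots fell in the first, middle and last part. These are 33.2, 32.4 and 34.4%, against 32.7, 30.5 and 36.9% of all 4122. RefSeq genes held 595 of 907 (65.6%, 62.4 to 68.6%), against 63.5% of all 4122. Protein-coding genes held 58.3% against 56.3%, and genes of long noncoding RNAs 10.3% against 9.32%. Of 874 with a known distance to a transcript start (none is given for chromosome 18), 11 lay within 1 kb (1.26%, against 1.61% of all), and the median distance was 30.8 kb. The centers of 5 lay within 0.5 kb of a start, those of Rgs19, Il2, Gm34628, Gm40770 and Serpinb1c. The nearest hotspot of the SPRT allele was a median of 67.6 kb away (62.3 to 76.0), against 73.9 kb for all, and 35 of 907 (3.86%) had 1 within 5 kb, against 3.88%.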

How the data were processed

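DMC1 SSDS and H3K4me3 ChIP-seq were made from whole testis. The submitters' processing notes name BWA and mm10, with versions not given in the sources used here. The authors made hotspot calls de novo from each DMC1 library, used other mice to attribute them to PRDM9 alleles, and used SNPs to tell the homologs apart. Each genotype has 1 deposited table, with the caller's DMC1 signal, whose depth scaling is not stated, and the DMC1 fraction from B6, given without its number of reads. For H3K4me3 the deposited values are counts of coverage in ChIP and in input and of SNP-carrying reads, a fraction of reads from B6, and a ratio of enrichment whose formula is not stated. Each has 1 column per genotype and was taken as pooled over samples. Tables were matched to genotypes by the alleles they name, the cross in their names and their totals. A further 13 columns of values, among them p-values of the authors, were not used.

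Hotspots on the 19 autosomes attributed to B6 were classed by B6 fraction (limits 25 and 75%). H3K4me3 was ChIP over input coverage without a pseudocount. Hotspots of 2 tables were matched at their nearest centers within 500 bp. Intervals are 95% Wilson intervals for shares and order-statistic binomial intervals for medians, both over hotspots of a library. No test was made, because there was 1 DMC1 library per genotype. Gene names and promoters are from RefSeq GRCm38.p6, the assembly of mm10. The promoters used hold none on chromosome 18. No sequence around other centers was read and no motif search was made.

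The hotspots, classes and limits were chosen with earlier results of these data known. The hotspots named were the 5 with the largest DMC1 signal, the 3 with the largest H3K4me3 ratio, the 3 with the largest signal in STUS/B6, the weakest, the 2 nearest each limit on each side (with the other mark under 25% B6) and the strongest of each other class. Hotspots at transcript starts, those called without the B6 allele and those that changed homolog were named after their values were seen. Alternatives covered the limits, read minimum, match distance, pseudocount, enrichment column, denominators and the largest autosome. Tables were handled in pandas 2.3.3 under Python 3.11.15, intervals came from scipy 1.17.1 with numpy 2.4.6, plots were drawn with matplotlib 3.10.9, and the computations were tested on simulated data.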

Additional observations from a re-analysis of the deposited data

Results flagged for a closer look

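Of the 737 SPRT-biased hotspots with a B6 fraction in STUS/B6, 6 lay on the other side in that hybrid, with under 25% of DMC1 reads from B6 in B6/SPRT and over 75% in STUS/B6. These 6 are 0.814% of the 737. Over all B6-allele hotspots of B6/SPRT with a fraction there, whatever their side in B6/SPRT, 250 of 3309 (7.56%) lay over 75%. The 6 were picked out because the B6 share pointed opposite ways in the 2 hybrids. The difference was not tested, since each hybrid has 1 DMC1 library and the reads behind a DMC1 fraction are unknown.

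The position on chromosome 5 at 146252613 in Cdk8, a kinase of the Mediator complex, had 3.36% of DMC1 reads from B6 in B6/SPRT and 100% in STUS/B6, with DMC1 signals of 61.7 and 54.2. On chromosome 12 at 31257787 it was 2.82% against 97.8%, with signals of 267 and 37.99. On chromosome 14 at 62488818 it was 0.920% against 97.6%, with signals of 136 and 22.3 and centers 15 bp apart. On chromosome 11 at 42439910 in Gabrb2, a subunit of the GABA-A receptor, it was 2.08% against 88.0%, with signals of 181 and 36.6. On chromosome 14 at 21480386 it was 8.87% against 93.3%, but the centers lay 366 bp apart and the signal in STUS/B6 was 8.01. On chromosome 12 at 76064859 in Syne2, a linker of the nuclear envelope, it was 4.72% against 89.8%, with signals of 231 and 196. The call there in STUS/B6 had no allele assigned and lay 182 bp away, and STUS/Hum, which lacks the B6 allele, had a STUS-allele hotspot with a signal of 49.8 at 202 bp from the same center. By H3K4me3 in B6/SPRT all 6 had between 9.33 and 24.8% from B6.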

How the results depend on the processing

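With a B6 limit of 10% for both marks, 207 hotspots were left, with 20.9% of the DMC1 signal, a median signal of 177, an H3K4me3 ratio of 9.94, 60.4% in genes, 0 called in Hum/SPRT and 0 in CAST/SPRT, 99.4% cut on the STUS homolog in STUS/B6, and rho values of 0.70 between hybrids and 0.28 between signal and H3K4me3. With 40%, the signal share was 73.1%, the median signal 73.6, the H3K4me3 ratio 7.00 and the share cut on STUS 91.1%. The signal share was 34.9% over all B6-allele hotspots and 35.7% with each hotspot counted once. The H3K4me3 ratio was 7.12 with 1 added to both coverages and 6.54 in the authors' enrichment column. In STUS/B6, 79.6% were called when only B6-allele calls counted, 56.2% with centers within 100 bp (an alternative chosen after seeing the data), and 92.7% of those with a fraction lay under 10% B6. Protein-coding genes held 58.3%, and the median share per autosome was 20.8% of all B6-allele hotspots. With centers within 1000 bp, also chosen after seeing the data, 0.992% were called in STUS/Hum in place of 0.551%, within the interval of the latter. The other values, among them those without chromosome 11, those with at least 50 SNP-carrying reads and those with centers within 250 or 1000 bp, moved by less than their interval, or stayed within 1.5 times for counts. Replicates could not be left out, since each genotype has 1 DMC1 library and pooled H3K4me3 columns. Precision at single hotspots is limited by the unknown depth of the DMC1 fractions and by input coverage of 6 to 49.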
